A study of Mus musculus and Mus musculus
Oryx dammah with 30 samples.

Results

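The 10 genes followed here encode Polycomb proteins or the enzymes that remove the Polycomb mark from histone H3: Ezh1, Ezh2, Eed, Suz12, Rnf2, Ring1, Bmi1, Pcgf6, Kdm6a and Kdm6b. They were taken by gene name, 10 of the 53023 genes listed in the four-cell and replication tables and of the 55364 in the two-cell table, and each name matched 1 gene in every table. The samples were mouse embryos that had received C2C12 cells, a myoblast line from C3H mice, by nuclear transfer (NT). Recipients were BDF1 embryos of C57BL/6 and DBA/2 parentage, arrested in 0.1 µg/ml demecolcine, and the NT embryos were cultured for 24 h before RNA-seq. The comparisons asked which transcripts depend on RNA polymerase II after NT, by culture with or without its inhibitor α-amanitin, and whether replication in the recipient mattered.

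Four-cell NT embryos received the donor cells from 46 hours post insemination (hpi) and were collected at 70 hpi, as pools of 3 embryos, with 3 pools with and 3 without α-amanitin. Two-cell NT embryos were made from 21 hpi and collected at 45 hpi (early) or from 30 hpi and collected at 54 hpi (late), as pools of 5, with 6 pools with and 6 without α-amanitin. The column names of the two-cell table give the α-amanitin state but not early or late, so early and late pools could not be separated. Of its libraries, 3 in each state carry an R in their names, and these are called the R libraries here. The replication experiment compared 3 pools of 4 four-cell NT embryos named D with 3 named DR, all without α-amanitin, and the labels do not expand these letters. Each pool holds RNA of the recipient embryo and of the donor cells, and the 2 sources cannot be told apart in these values. Likewise, a smaller share of a cell type and less RNA per cell cannot be told apart.

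Polycomb repressive complex 2 (PRC2) methylates lysine 27 of histone H3. EZH2, or its paralogue EZH1, is the catalytic subunit, EED binds the finished mark and is needed for activity, and SUZ12 holds the complex together. PRC1 ubiquitinates histone H2A through RNF2 (RING1B) or its paralogue RING1, and a PCGF subunit, such as BMI1 (PCGF4) or PCGF6, defines which form of PRC1 is made. KDM6A (UTX) and KDM6B (JMJD3) are demethylases that take methyl groups off H3 lysine 27. This mark is known for keeping developmental regulators silent in differentiating cells and, when inherited from the oocyte, for marking a class of imprinted genes in the early embryo.

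Promoter sequences from RefSeq (GRCm38.p6), 250 bases before to 50 after the start of the gene, matched 9 of the 10 genes, all but Kdm6b. The windows of Eed and Bmi1 are shown because these members had the largest differences between α-amanitin states, in opposite directions, at the two-cell stage with FPKM as deposited. Eed lies at chr7:89980927-89981226 on the minus strand and Bmi1 at chr2:18676768-18677067 on the plus strand. Capitals mark matches on either strand to the GC box GGGCGG, the CCAAT box (named for its letters), the ETS core CCGGAA, the TATA box with letters TATAAA, the E-box with letters CACGTG and the OTX core with letters GGATTA.
Eed: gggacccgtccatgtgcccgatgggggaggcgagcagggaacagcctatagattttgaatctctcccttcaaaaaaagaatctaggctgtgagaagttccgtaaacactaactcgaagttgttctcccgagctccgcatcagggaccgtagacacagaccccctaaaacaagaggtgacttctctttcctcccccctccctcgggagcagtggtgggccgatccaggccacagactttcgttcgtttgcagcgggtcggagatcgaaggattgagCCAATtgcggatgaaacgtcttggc
Bmi1: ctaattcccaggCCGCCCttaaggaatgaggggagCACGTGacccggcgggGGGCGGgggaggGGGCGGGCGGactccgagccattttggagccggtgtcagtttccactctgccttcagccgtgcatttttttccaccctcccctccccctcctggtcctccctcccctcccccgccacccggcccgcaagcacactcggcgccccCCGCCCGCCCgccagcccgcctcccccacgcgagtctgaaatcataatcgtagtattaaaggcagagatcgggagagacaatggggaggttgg
The Eed window held 1 match, to the CCAAT box, 25 bases after the start. The Bmi1 window held 6 matches to the GC box, some overlapping each other, and 1 to the E-box. Of 32851 promoters, 35.7% held the GC box, 37.4% the CCAAT box, 14.9% the ETS core, 13.6% the TATA box, 7.15% the E-box and 7.06% the OTX core. Of the 9 promoters, 6 held the GC box, 3 the CCAAT box, 2 the E-box, 1 the ETS core and 0 the TATA box or the OTX core. Eed had 17 CpG in its window and Bmi1 23, against a median of 7 over all promoters.

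Reads on genes numbered 1136771 to 3101002 per library in the four-cell table, 4712268 to 10503779 in the two-cell table and 2603946 to 19181387 in the replication table. Values are FPKM, fragments scaled by gene length and library depth. Tests were limma's on log2(FPKM + 1), adjusted by Benjamini-Hochberg over all genes tested, and a gene was called below an adjusted p of 0.05. Fold changes on this scale understate those of low genes. A gene was tested if 3 or more libraries reached an FPKM of 1. Of the myoblast and mesenchymal markers, summed FPKM ran from 210.2 to 782.1 without and from 104.2 to 2289 with α-amanitin at the four-cell stage, and Col1a1 was at 0 throughout. The summed level of the oocyte and cleavage embryo markers was 8718 to 9910 without and 12180 to 16050 with α-amanitin there, and the 5 cumulus and granulosa markers were at 0. Of the 7 oocyte and cleavage embryo markers, 1 was called lower there without α-amanitin, Zp3 (adjusted p = 0.0399, limma), beside 1.13% of all genes. Of 8 myoblast and mesenchymal markers tested there, 0 were called. At the two-cell stage the myoblast and mesenchymal sum was 166.8 to 4299 without and 1190 to 2544 with α-amanitin, and the oocyte and cleavage embryo sum 7240 to 12300 and 975.5 to 7705. Dppa3 made up most of the latter sum in both tables, with means of 9445 and 8843 without α-amanitin. The four-cell table lists 0 ERCC spike-ins, so its values could not be scaled to them.

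In four-cell NT embryos without α-amanitin, Eed had the highest mean of the members, at 91.0 ± 18.7 FPKM (SD, n = 3). It was followed by Suz12 (67.4 ± 9.40), Pcgf6 (41.3 ± 18.1), Rnf2 (36.2 ± 9.46), Ezh2 (18.1 ± 2.68) and Bmi1 (12.1 ± 8.44). Kdm6a (6.43 ± 4.19), Ezh1 (2.60 ± 0.588), Kdm6b (1.21 ± 1.30) and Ring1 (0.339 ± 0.324) were the lowest. In this order only the neighbours Rnf2 and Ezh2 did not overlap. Members further apart in the order could still be separate, as Eed (lowest pool 70.4) lay above every pool of Pcgf6 (highest 60.3). In each pair of paralogues the same member was the higher in all 24 libraries of the 3 tables: Ezh2 over Ezh1, Rnf2 over Ring1 and Kdm6a over Kdm6b.

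**Figure D1:**
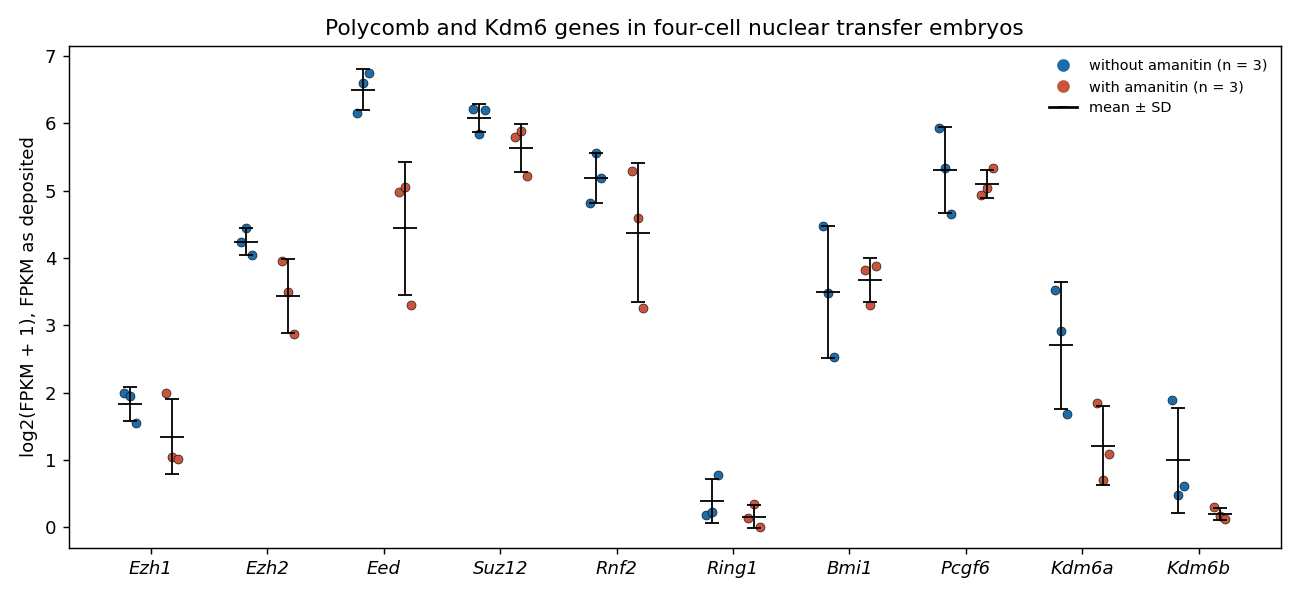
Levels of the 10 genes in four-cell NT embryos as log2(FPKM + 1), 1 point per pool, without (blue) and with (red) α-amanitin, with mean ± SD (n = 3). Eed, Ezh2 and Kdm6b were higher in every pool without α-amanitin than in every pool with it, while the pools of Bmi1, Pcgf6, Rnf2 and Suz12 overlapped.

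Eed, the subunit that reads the mark, was the member called at the four-cell stage. Its FPKM was 70.4, 95.8 and 107 without α-amanitin and 30.6, 32.2 and 8.88 with it. The groups did not overlap. The difference was 2.06 on the log2 scale (SE 0.47), 4.16-fold, with an adjusted p of 0.02705 (limma). Of 9884 genes tested, 11.1% were called higher and 1.13% lower without α-amanitin, 6.20% higher and 0.364% lower when 4-fold was also required, and 27.6% lay higher and 7.56% lower with no overlap of the groups. One of the 8 members tested was called, beside a background of 11.1%. That background varied with the libraries, as the 1093 genes called higher became 399, 557, 349, 470 and 367 without S18, S8, S15, S17 or S7, and 275 without the filter. Its fold was above 4 as deposited, but the difference was 1.75 (log2) by median of ratios, 1.49 without S8 and 1.93 without S7, all under 4-fold. Leaving out S15, S17 or S7, the pools without α-amanitin, ended the call, with differences of 2.23, 2.01 and 1.93 at adjusted p of 0.06939, 0.09129 and 0.1003 (limma). Without the filter on low values the difference was the same, at an adjusted p of 0.08891.

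Its partners in PRC2 did not pass the threshold. Ezh2 stood at 17.9, 20.9 and 15.5 FPKM without α-amanitin and 14.6, 10.3 and 6.31 with it, so its groups did not overlap, with a log2 difference of 0.80 (SE 0.38, adjusted p = 0.1976, limma). Suz12 stood at 73.3, 56.6 and 72.4 without and 54.5, 58.2 and 36.3 with α-amanitin, and the groups overlapped. Its difference was 0.45 on the log2 scale (adjusted p = 0.3231, limma). Ezh1 ranged from 1.93 to 3.01 without and from 1.02 to 2.99 with α-amanitin. The log2 ratio of Eed to Suz12, on log2(FPKM + 1), was -0.06 to 0.75 without and -1.92 to -0.81 with α-amanitin.

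Among the PRC1 subunits, Rnf2 stood at 27.2, 46.1 and 35.4 FPKM without α-amanitin and 38.1, 23.2 and 8.54 with it. Bmi1 stood at 21.3, 10.2 and 4.77 without and 13.2, 8.85 and 13.8 with it. Both overlapped between the groups, as did Pcgf6, with 24.2 to 60.3 without and 29.7 to 39.3 with α-amanitin. Their log2 differences were 0.81, -0.18 and 0.21, with adjusted p of 0.3241, 0.8481 and 0.7425 (limma). That of Bmi1 turned to 0.31 without S7, and that of Pcgf6 to -0.10 under median-of-ratios scaling. Ring1 failed the filter, with at most 0.713 FPKM in any pool.

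Of the demethylases, Kdm6a stood at 10.6, 6.52 and 2.21 FPKM without α-amanitin and 2.62, 0.630 and 1.13 with it. One pool without α-amanitin fell below the highest with it, and the difference of 1.49 (SE 0.57, log2) had an adjusted p of 0.1233 (limma). Kdm6b failed the filter. It stood at 2.71, 0.393 and 0.532 without and 0.232, 0.127 and 0.0905 with α-amanitin. Behind these values were 43, 5 and 8 reads without and 5, 1 and 1 with α-amanitin, so S15, the first pool without it, held most of the gene's reads. Over all genes tested the median difference was 0.366 (log2), and 6 of the 8 members, excepting Bmi1 and Pcgf6, lay above it.

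**Figure D2:**
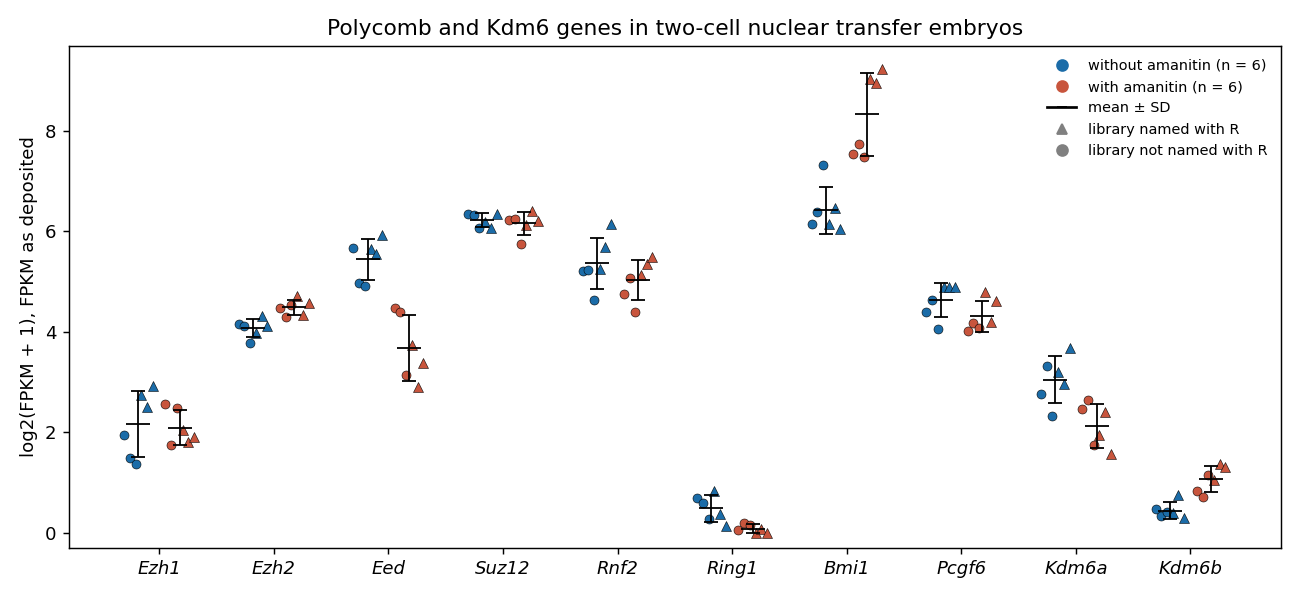
Levels of the 10 genes in two-cell NT embryos as log2(FPKM + 1), 1 point per pool, without (blue) and with (red) α-amanitin, with mean ± SD (n = 6). Triangles are R libraries and circles the others. Eed was lower and Bmi1 higher in every pool with α-amanitin.

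At the two-cell stage 4 of the 9 members tested were called, Eed and Kdm6a higher and Bmi1 and Kdm6b lower without α-amanitin. Over the 17196 genes tested, 38.9% were called higher and 8.51% lower, 11.1% and 1.58% when 4-fold was also required, and 16.3% and 2.95% lay higher and lower with no overlap. No member passed 4-fold. Beside these backgrounds, 2 of 9 members were called higher and 2 lower. The count depended on the set of libraries, as did that of all genes. Fitted alone, the R libraries called 5 members, these 4 and Ezh1, beside 9565 of the 17196 genes called higher and 2404 lower. The libraries not named with R called 0 members, beside 1469 genes higher and 442 lower. The median difference of all genes was 0.672 (log2) as deposited, 1.49 when scaled to the ERCC spike-ins and 0.24 under median-of-ratios scaling, so a member's direction is stated with its scaling. Beside these differences, 5 of 7 oocyte and cleavage embryo markers were called lower and 1 higher without α-amanitin. Of 9 myoblast and mesenchymal markers tested, 1 was called higher, Col3a1 (adjusted p = 0.0001411, limma), and 0 lower. The part of these markers in the members' values was not tested.

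Eed stood at 49.6, 30.4 and 29.2 FPKM without α-amanitin in the libraries not named with R and at 49.3, 45.5 and 59.6 in the R libraries. With α-amanitin it stood at 21.3, 20.1 and 7.77 and at 12.2, 6.45 and 9.38. The groups did not overlap. The difference was 1.78 (SE 0.38, log2), 3.43-fold, with an adjusted p of 0.002951 (limma). It kept this direction under every scaling, at 3.10 with the spike-ins (adjusted p = 0.0001646) and 0.99 by median of ratios (adjusted p = 0.02344). Within the libraries not named with R it was 1.18, with an adjusted p of 0.1082 when these were fitted alone and 0.04331 when all 12 libraries shared 1 estimate of the spread (limma).

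Bmi1 went the other way as deposited. Without α-amanitin it stood at 69.4, 82.7 and 157 FPKM in the libraries not named with R and at 70.0, 87.5 and 64.5 in the R libraries. With α-amanitin it stood at 184, 213 and 176 and at 519, 490 and 597. The groups did not overlap, and the R libraries with α-amanitin lay above all others. The difference was -1.91 (SE 0.43, log2), with an adjusted p of 0.004322 (limma), and 1.87% of all genes had a lower value. Scaled to the spike-ins it was -0.50, with an adjusted p of 0.3223, and it was no longer called, while by median of ratios it was -2.73 (adjusted p = 0.00445). In the table's libraries with α-amanitin, ERCC reads made up 6.535% to 11.25% of the reads, against 2.38% to 6.256% without it.

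Kdm6a ranged from 4.03 to 11.8 FPKM without α-amanitin (median 7.50) and from 1.96 to 5.24 with it (median 3.57). The groups overlapped, and the difference was 0.91 (SE 0.31, log2; adjusted p = 0.02864, limma), 2.04 with the spike-ins and 0.23, uncalled, by median of ratios. Leaving out RAm1, RAm3, NT2, R3 or r2 ended this call, with differences of 0.78 to 0.88 and an adjusted p of up to 0.06851. In the libraries not named with R fitted alone the difference was 0.52, also uncalled (adjusted p = 0.3953), against 1.31 in the R libraries (adjusted p = 0.007903, limma). Kdm6b ranged from 0.221 to 0.687 FPKM without (median 0.317) and from 0.632 to 1.58 with α-amanitin (median 1.15), and the groups overlapped. It reached the filter's FPKM of 1 only in pools with α-amanitin, so it was tested only through the group where it was higher. Its difference was -0.63 (SE 0.20, log2; adjusted p = 0.02208, limma), -0.06 with the spike-ins, where it was no longer called, and -1.01 by median of ratios (adjusted p = 0.01366). Leaving out RAm2 or RAm3 ended the call, with differences of -0.57 and -0.58 and an adjusted p of up to 0.05264. So did fitting the libraries not named with R alone, at -0.49 (adjusted p = 0.1737), against -0.76 in the R libraries (adjusted p = 0.017, limma). Kdm6a and Kdm6b thus lay on opposite sides as deposited, and their log2 ratio was 1.93 to 3.39 without and 0.27 to 1.94 with α-amanitin.

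The other members did not pass as deposited. Ezh2 ranged from 12.7 to 18.9 FPKM without α-amanitin (median 16.3) and from 18.5 to 25.2 with it (median 21.6), and overlapped. Its difference was -0.41 (adjusted p = 0.2346, limma), but 0.94 with the spike-ins and -1.20 by median of ratios, where it was called (adjusted p = 0.01241). Suz12 ranged from 65.6 to 80.5 without and from 52.6 to 83.9 with α-amanitin, with a difference of 0.07. Rnf2 and Pcgf6 differed by 0.33 and 0.32, and Ezh1 by 0.07. With the spike-ins, Suz12, Rnf2, Pcgf6 and Ezh1 were called higher without α-amanitin, at 1.46, 1.70, 1.67 and 1.17. On that scale 71.4% of all genes were called higher and 1.63% lower, and 6 of 9 members were called, with Suz12 and Ezh1 below the median of all genes. By median of ratios, where 21.9% of genes were called higher and 14.2% lower, these 4 turned to -0.75, -0.48, -0.48 and -0.57, uncalled. Ring1 reached at most 0.770 FPKM and did not pass the filter. Without the filter it was called higher without α-amanitin, by 0.40 (SE 0.11, log2; adjusted p = 0.03295, limma), at means of 0.416 and 0.0571 FPKM and as few as 0 reads in a library.

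**Figure D3:**
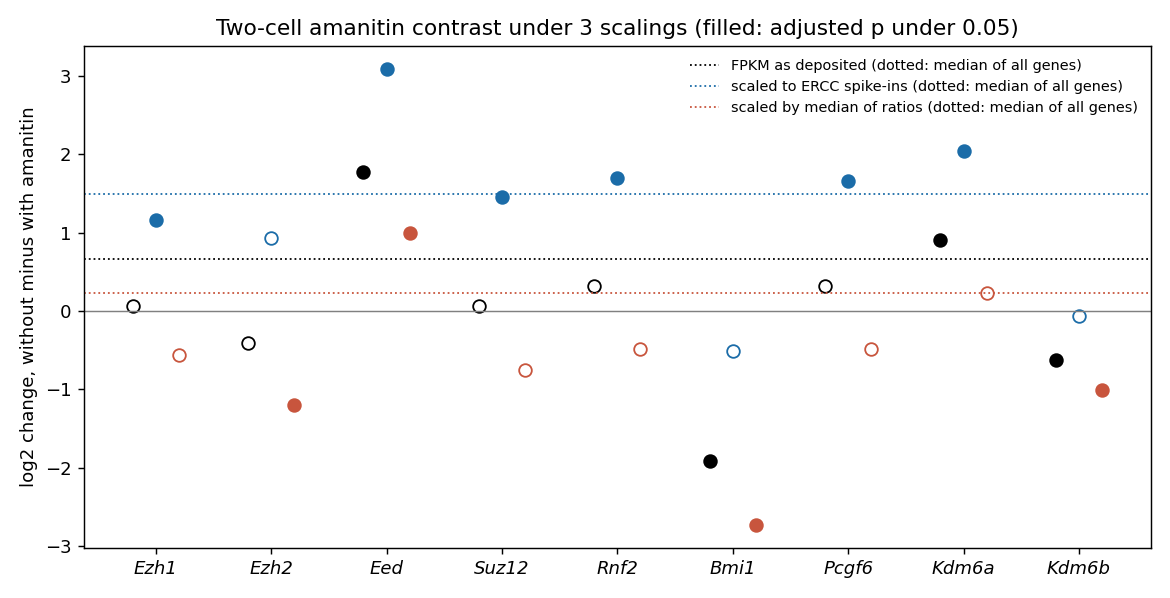
Log2 change of the 9 tested genes at the two-cell stage, without minus with α-amanitin, with FPKM as deposited (black), scaled to ERCC spike-ins (blue) and by median of ratios (red). Filled points were called (limma, adjusted p under 0.05) and dotted lines are the medians of all genes, 0.672, 1.49 and 0.24. Eed stayed above 0 and was called under each, while Suz12, Rnf2, Pcgf6, Ezh1 and Ezh2 changed sign.

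The R libraries differed from the others in how 2 members responded. For Bmi1 the effect of α-amanitin was -2.85 (log2) in the R libraries and -0.97 in the others (adjusted p = 0.02984 in the shared fit and 0.08724 alone, limma), and the difference between these effects was -1.88 (SE 0.39, adjusted p = 0.002085, limma interaction). For Ezh1 it was 0.80 in the R libraries (adjusted p = 0.01622 when fitted alone) and -0.66 in the others (adjusted p = 0.2353, limma), a difference of 1.46 (SE 0.40, adjusted p = 0.01034, limma interaction). Over all genes the interaction was called higher for 36.0% and lower for 8.46%, beside 1 of 9 members in each direction. For Eed the difference of 1.19 had an adjusted p of 0.08029 (limma). With α-amanitin, Bmi1 was 1.48 higher (log2) in the R libraries (adjusted p = 0.0006047, limma), where 10.9% of all genes were called higher and 43.1% lower. Without α-amanitin no member was called between the sets, and 1.37% of genes were called higher and 1.08% lower. The names do not say what R stands for, so set and stage cannot be told apart.

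Scaled to the spike-ins, Bmi1 stood at 124 ± 22.7 FPKM without and 141 ± 32.3 with α-amanitin in the libraries not named with R (SD, n = 3). In the R libraries it stood at 154 ± 10.2 and 276 ± 26.7. The effect within the R libraries was then -0.84, with an adjusted p of 0.01012 (limma), and in the others -0.17 (adjusted p = 0.6879). For Ezh1 it was 2.38 within the R libraries (adjusted p = 5.854e-05, limma) and -0.0421 in the others (adjusted p = 0.9498). Eed, scaled the same way, stood at 50.7 ± 31.4 without and 12.3 ± 6.29 with α-amanitin in the libraries not named with R, and at 109 ± 23.7 and 4.74 ± 1.00 in the R libraries.

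**Figure D4:**
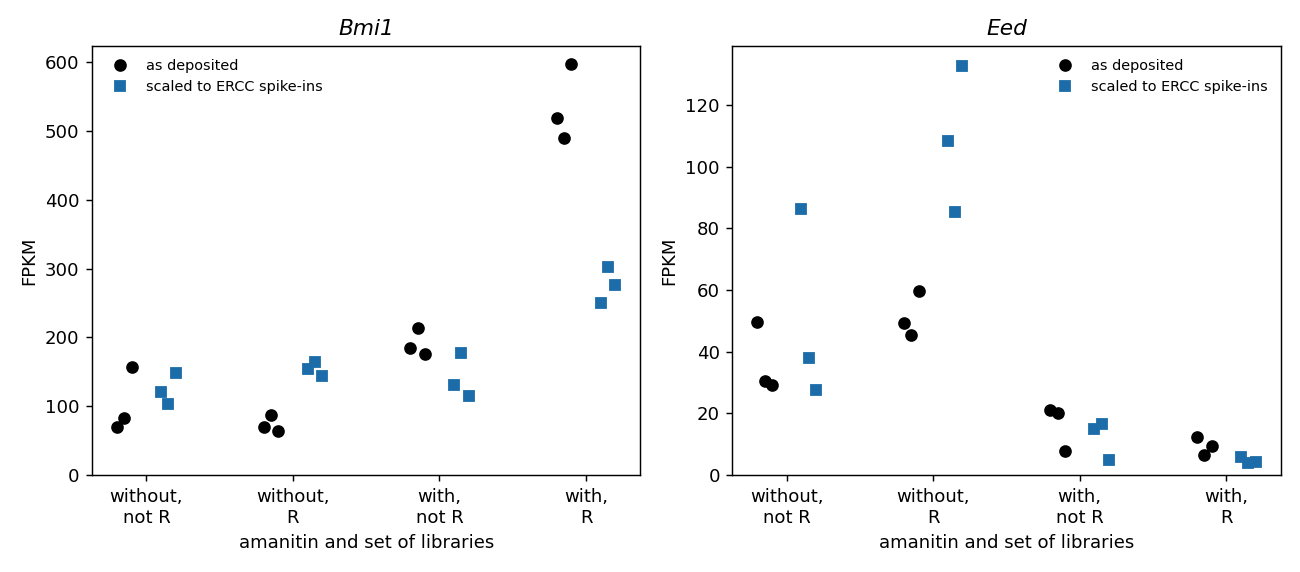
FPKM of Bmi1 and Eed in each two-cell pool by α-amanitin and set of libraries (n = 3 each), as deposited (black circles) and scaled to ERCC spike-ins (blue squares). Deposited Bmi1 reaches 490 to 597 in the R libraries with α-amanitin, and the spike-in scaling brings it to 249.5 to 303.

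In the replication experiment no gene of 14570 was called between DR and D, so the background was 0% in both directions, with 88 genes at an unadjusted p under 0.05 (limma). With spike-in scaling, 0.0137% of genes were higher and 0.975% lower in DR with no overlap of the pools, and 0 of the members tested were among them. On the spike-in scale the differences of the 9 members tested ran from -1.74 to -0.86 (log2), around a median of all genes of -1.41, with adjusted p of at least 0.713 (limma). Their SEs ran from 1.25 (Kdm6b) to 2.34 (Eed), so the lack of calls does not show that DR and D were alike. The spike-in factors of these libraries ran from 0.09445 to 5.649, and ERCC reads made up 0.01812% to 0.7763% of the reads. As deposited, Eed stood at 40.9, 47.7 and 39.6 FPKM in DR and 36.5, 30.9 and 75.4 in D, and overlapped. Rnf2 stood at 44.8, 43.0 and 59.0 in DR and 27.6, 29.8 and 26.0 in D. These did not overlap as deposited, as was so for 8.21% of all genes higher and 3.99% lower in DR on that scale. Its difference of 0.78 (log2) as deposited had an adjusted p of 0.7883 (limma), and it was -0.86 with the spike-ins.

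The other PRC2 members overlapped between D and DR as deposited. Suz12 stood at 39.3, 37.2 and 47.5 FPKM in DR and 42.7, 43.2 and 45.1 in D. Ezh2 stood at 11.3, 8.72 and 9.49 in DR and 7.52, 12.6 and 9.79 in D. Ezh1 ranged from 1.755 to 3.256 in DR and from 2.255 to 4.05 in D. Kdm6a ranged from 2.91 to 6.00 in DR and from 4.94 to 6.02 in D, and Kdm6b from 0.413 to 1.32 and from 0.952 to 1.11. Bmi1 ranged from 10.9 to 20.7 and from 6.99 to 22.2, and Pcgf6 from 26.9 to 33.1 and from 18.9 to 30.8. Ring1, which failed the filter, ranged from 0.266 to 0.997 in DR and from 0.461 to 0.636 in D.

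**Figure D5:**
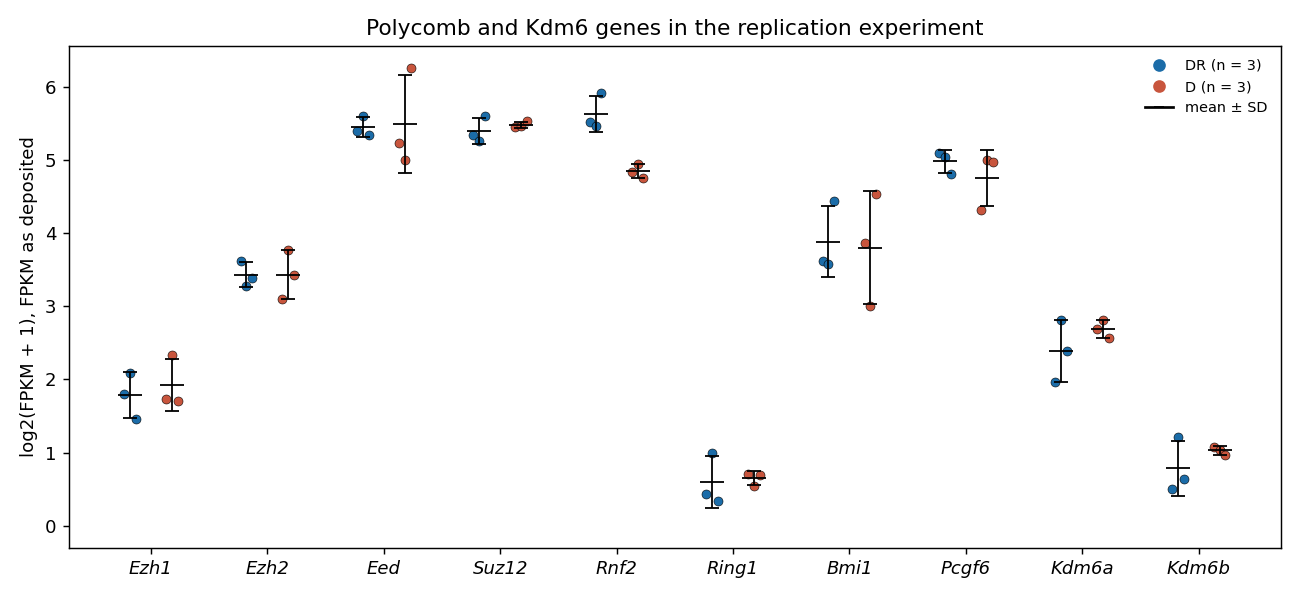
Levels of the 10 genes in the replication experiment as log2(FPKM + 1) with FPKM as deposited, 1 point per pool, for DR (blue) and D (red), with mean ± SD (n = 3). Rnf2 was higher in every DR pool than in every D pool, and the other genes overlapped.

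Set side by side with no test, since the tables were normalized separately, Bmi1 had a mean of 12.1 FPKM in untreated four-cell and 88.6 in untreated two-cell NT embryos, and 14.3 in D. Eed had 91.0, 43.9 and 47.6, Suz12 67.4, 73.7 and 43.6, and Ezh2 18.1, 15.9 and 9.97. The length used for Pcgf6 was 2098 bases in the four-cell and replication tables and 5027 in the two-cell table, so its FPKM cannot be set across them.

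Among the genes that work with these proteins, 1 was called at the four-cell stage. Pcgf2, a PRC1 subunit of the BMI1 type, was lower without α-amanitin, at 0.512 ± 0.257 against 5.49 ± 3.98 FPKM (SD, n = 3; adjusted p = 0.03867, limma). It averaged 18.3 reads per library, under the 20 below which simulated data gave too many false calls in this design, and it was not tested with that minimum. It was the 1 called of 14 PRC1 accessory and paralogous genes tested, with a median difference of 0.57. Of all genes, 11.1% were called higher and 1.13% lower. None of 6 PRC2 accessory genes, 4 of H2A deubiquitination, 9 Kdm6a partners and acetyltransferases and 2 imprinted genes was called, with medians of 0.85, 0.37, 0.51 and 0.92 against 0.366 over all genes. The highest of these genes by the mean over all 6 pools was Dpy30, a subunit shared by histone methyltransferases, at 318 ± 88.2 without and 332 ± 89.0 with α-amanitin, and the highest PRC2 accessory gene was Rbbp7, a histone chaperone, at 325 ± 10.2 and 175 ± 80.5 (adjusted p = 0.06868, limma). Usp16 led the H2A deubiquitination genes, at 52.6 ± 16.7 and 75.2 ± 20.4. No Hox gene passed the filter, and 20 of 39 were listed at 0 in every library.

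At the two-cell stage, 9 of 22 PRC1 accessory and paralogous genes were called higher and 2 lower without α-amanitin, close to the 38.9% and 8.51% of all genes. Pcgf1, which defines a variant PRC1, stood at 299 ± 94.3 FPKM without and 44.6 ± 34.0 with α-amanitin (SD, n = 6; adjusted p = 0.001086, limma). Pcgf5 stood at 47.5 ± 14.7 and 6.38 ± 6.33 (adjusted p = 0.001667, limma) and Rybp, a subunit of variant PRC1, at 9.49 ± 2.03 and 1.41 ± 1.11 (adjusted p = 0.0003492, limma). Cbx7, a canonical PRC1 subunit, was also called higher, at 2.41 ± 0.912 against 0.967 ± 1.03 (adjusted p = 0.03894, limma), while Phc2, another, was lower without α-amanitin, at 1.14 ± 0.435 against 6.71 ± 3.33 (adjusted p = 0.001398, limma). The other genes called higher were Kdm2b, Bcor, Bcorl1, Mga and Usp7, and the other called lower was Scml2. Bcor and Bcorl1 reached the filter's FPKM of 1 only in pools without α-amanitin. Calls in this and the other lists were made with FPKM as deposited, not under other scalings or by set of libraries. With the spike-ins 1.63% of all genes were called lower. The median difference of the list was 0.47 against 0.672 over all genes.

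The remaining lists are small, and their counts are read beside the same 38.9% of all genes called higher and 8.51% lower. Of 6 PRC2 accessory genes tested, Rbbp4, a histone chaperone, was called higher at 7.03 ± 0.967 against 2.72 ± 1.00 FPKM, and Lcor was called lower at 3.93 ± 0.920 against 7.76 ± 2.02. Their median was 0.74. Of 5 H2A deubiquitination genes, 3 were called higher: Asxl1, Asxl2 and Mysm1. Of 10 Kdm6a partners and acetyltransferases, Dpy30, Ep300 and Wdr5 were called higher and Ncoa6 lower. Of 4 imprinted genes, Gab1 and Jade1 were called higher, at 3.70 ± 2.03 against 1.37 ± 1.18 and 4.02 ± 2.69 against 0.660 ± 0.883. Of 2 Hox genes tested, Hoxc10 was called higher, at a mean of 15.3 reads, and Hoxa7 lower. Asxl2 and Hoxc10 reached the filter's FPKM of 1 only in pools without α-amanitin. Of genes of the two-cell burst, which mark genome activation, 1 of 2 was called higher at the four-cell stage (Tcstv3, at a mean of 13.7 reads, beside 11.1% of all genes) and 3 of 5 at the two-cell stage, among them Tcstv3, at 241 ± 236 against 2.17 ± 2.30. At the four-cell stage Tcstv3 was at 0 in every pool with α-amanitin, so it passed the filter only through the pools without it. Between DR and D no gene of these lists was called.

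Over the 24 mouse libraries, with the mean of each table removed, the genes whose log2 levels were most like Eed among 9102 were Tnfrsf10b (Pearson r 0.955), Rrp36 (0.925) and Gm13212 (0.923). Those most like Ezh2 were Pdia5 (0.838), Ube3c (0.837) and Degs1 (0.789), and those most like Kdm6b Ncapg2 (0.837), Herpud2 (0.827) and Togaram1 (0.803). These are descriptions over libraries that share treatment and table, and carry no test.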

How the data were processed

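Pools of NT embryos were sequenced after cDNA amplification with ERCC spike-ins, of which the four-cell table lists 0. The submitters' notes name Trimmomatic, Trim Galore, cutadapt, STAR, featureCounts and mm10. The authors deposited FPKM per gene, and no count table was used. Reads were recovered from FPKM and gene length to describe depth, to set a read minimum and, in the four-cell table, for a limma-voom fit, and 100% of values were whole within 0.01 in the four-cell table, against 40.34% to 50.53% in the others. limma 3.58.1 in R 4.3.3 was fitted to log2(FPKM + 1), with FPKM as deposited for the α-amanitin contrasts and scaled to spike-ins for DR against D. Genes were tested if 3 or more libraries reached an FPKM of 1. Whether this fit recovers differences of the size seen in the members was not tested, with or without spike-in scaling. In simulated data of 3 against 3 it called more unchanged genes than the 0.05 threshold allows, mostly genes under 20 reads. A mean of at least 20 reads brought this back near the threshold and was therefore added as an alternative after the data were seen. The members and gene lists were chosen with earlier results of these data known. Named genes were the members, genes called in the lists, the highest gene of a list by its mean, a marker at 0 throughout and the 3 genes most like Ezh2, Eed and Kdm6b. p-values measure the spread between pools, which in the two-cell contrast also holds the difference between early and late pools. 4 columns of no listed sample and the oryx table were not used.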

Additional observations from a re-analysis of the deposited data

Results flagged for a closer look

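Bmi1 in two-cell NT embryos without α-amanitin had 1 library far from the rest, NT3, at 157.5 FPKM as deposited against 64.5 to 87.47 in the other 5. Scaled to the spike-ins NT3 was at 148.7, within the 103.8 to 163.9 of the others. Kdm6b had 1 in the same group, r1, at 0.6866 FPKM against 0.2207 to 0.3865. Of 20 groups of 6 examined, 2 were marked in this way, and chance marks about 1 in 20. The effect of α-amanitin differed between the R libraries and the others for Bmi1, by -1.88 (log2, adjusted p = 0.002085, limma interaction), and for Ezh1, by 1.46 (adjusted p = 0.01034). Over all genes this difference was called higher for 36.0% and lower for 8.46%. With the spike-ins the effect on Bmi1 was -0.84 in the R libraries and -0.17 in the others. What the set of libraries stands for was not tested.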

How the results depend on the processing

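Of the members' values under the alternatives, 87 of 94 kept direction and side of the threshold in the four-cell contrast, 173 of 214 in the two-cell contrast and 97 of 105 for DR against D. With a mean of at least 20 reads, the alternative added because simulated data gave too many false calls at few reads, 869 genes were called higher and 82 lower at the four-cell stage, 5668 and 1319 at the two-cell stage, and the number of members called was 1 and 4 as before, with Eed at an adjusted p of 0.01917 and 0.002409. The causes of the changes below were not tested.

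Four-cell genes called higher and lower (1093 and 112) were 673 and 59 with a pseudocount of 0.1, 275 and 9 without the filter, and 463 and 63 at a mean FPKM of at least 5, and 223 were lower by median of ratios. Leaving out 1 library gave 349 to 1177 higher and 17 to 136 lower, and 0 to 1 member called, with 0 also without the filter. With 1 library left out Bmi1 was -0.67 to 0.31, the 0.31 without S7, and Pcgf6 -0.11 (without S15) to 0.53, and Pcgf6 turned to -0.0999 by median of ratios.

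Two-cell genes called higher and lower (6694 and 1464) were 3731 and 767 at a mean FPKM of at least 5, 12276 and 281 with the spike-ins, and 3768 and 2443 by median of ratios. They were 1469 and 442 in the libraries not named with R, 9565 and 2404 in the R libraries, and with the spike-ins 13158 and 738 in the R libraries and 3295 and 90 in the others. Members called numbered 5 without the filter, with Ring1 the fifth, 5 in the R libraries, with Ezh1 the fifth, 0 in the libraries not named with R fitted alone (Eed and Bmi1 were called there in the fit that shared the spread of all 12), and with the spike-ins 8 in the R libraries and 1 in the others. Leaving out 1 library gave 4972 to 7508 higher, 1032 to 1720 lower and 2 to 4 members, the 2 without RAm3. By median of ratios Ezh1, Suz12, Rnf2 and Pcgf6 turned to -0.57, -0.75, -0.48 and -0.48. Ezh1 was -0.66 in the libraries not named with R, -0.0421 there with the spike-ins, and -0.0823 to 0.2265 with 1 library left out (-0.0491 without R3). Ezh2 was 0.94 with the spike-ins, 1.52 in the R libraries with them and 0.35 in the others. Suz12 was -0.0472 in the R libraries and -0.0162 (without Am3) to 0.1167 with 1 library left out, and Kdm6b 0.0648 in the R libraries with the spike-ins.

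For DR against D, Ezh2, Rnf2, Bmi1 and Pcgf6 were 0.0019, 0.78, 0.0797 and 0.22 as deposited, Rnf2, Bmi1 and Pcgf6 were 0.73, 0.0298 and 0.17 by median of ratios, and Rnf2 was -2.48 to 0.37 with 1 library left out, the 0.37 without D1. Leaving out 1 library gave 0 genes higher and 0 to 4 lower, the 4 without D5, and 0 members called.

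With the replicate block, 6027 genes were called higher and 1344 lower at the two-cell stage, and Eed, Bmi1, Kdm6a and Kdm6b kept their calls, at adjusted p of 0.01188, 0.01536, 0.0401 and 0.04874. The libraries that share a number correlated at 0.0149 to 0.0654, so the block pairs numbers only. No paired analysis was possible for the other contrasts because the four-cell columns carry no numbers of the labels and D and DR share 1 number. The planned edgeR and DESeq2 fits were not run. In the four-cell table, limma-voom on the recovered reads, added after the data were seen, called 1124 genes higher and 78 lower, with Eed at an adjusted p of 0.01671.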
